A study of Rattus norvegicus with 10 samples.

Results

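Genes of glutathione metabolism, metallothioneins and other antioxidant genes were examined in kidneys of rat fetuses on day 22 of gestation, close to birth. Members were all probe sets whose only gene symbol in the platform annotation named a glutathione S-transferase, a glutathione peroxidase, an enzyme of glutathione synthesis, reduction or turnover, a metallothionein, a superoxide dismutase, catalase, a peroxiredoxin, a thioredoxin or its reductase, a heme oxygenase, a quinone reductase, or the regulators Nfe2l2 and Keap1. This gave 59 of 15923 probe sets, for 56 of the 10412 genes named by a probe set with 1 symbol. Only probe sets bright enough were tested, meaning that 5 or more of the 10 arrays gave a signal no lower than the 40th percentile of all signals on that array, and 52 members, for 49 genes, met this. The 7 below that level were Mt1, Mt3, Gstm3, Gstt1, Gpx6, Ggt5 and Ggt7. Of the 52, 48 reached it on all 10 arrays.

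Cells remove peroxides and reactive foreign compounds largely through thiols. The tripeptide glutathione is made by glutamate-cysteine ligase and glutathione synthetase, is used up by peroxidases and S-transferases, and is regenerated by glutathione reductase. Thioredoxin and the peroxiredoxins form a parallel system, while metallothioneins are small cysteine-rich proteins that bind zinc and copper. The transcription factor NRF2, encoded by Nfe2l2 and held down by KEAP1, switches on many of these genes through antioxidant response elements, and the proximal tubule of the kidney is known for its high glutathione turnover.

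The normal group held 5 kidney samples of fetuses of mothers kept on a regular diet, with no treatment named (replicates 1 to 5). The hyperinsulinemic group held 5 kidney samples of growth-restricted fetuses (replicates 6 to 10) of Wistar mothers of 200 to 280 g, also on a normal diet, that received a 2 mm piece of a sustained-release insulin implant under the skin before mating and again after it. The strain of the normal mothers, and the litter, mother and sex of each fetus, were not given in the labels, so the p-values rest on the spread among these 10 samples, part of which may be technical, and would be too small if samples shared a mother. Each sample was hybridised to 1 Affymetrix rat array, and the deposited value is a linear MAS5 signal. In whole-kidney RNA, fewer cells of a type and less RNA per cell cannot be told apart. Values after ± are the SD of signals over 5 arrays or the standard error of a log2 difference, always hyperinsulinemic minus normal on the scale of log2(signal + 16).

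Kidney markers were present: all 14 proximal tubule, 7 of 8 loop and distal tubule, all 6 collecting duct and 5 of 6 podocyte markers were measured above the level for testing. So were 10 of 15 listed liver and 8 of 9 macrophage and leukocyte markers, so reaching that level does not by itself identify the tissue. Markers of neighbouring organs were uneven across arrays. The summed signal of 14 of 15 listed liver markers, none at 0 on any array, was 1635 to 3344 in the normal and 2021 to 7121 in the hyperinsulinemic group, highest in hyperinsulinemic replicate 6 and, among normal arrays, in replicate 4. The listed liver genes did not all move together: in hyperinsulinemic replicate 6 Alb was highest of all 10 arrays, at 1742, and Afp, which the fetal liver makes in abundance, was lowest, at 706. The sum of 10 of 12 listed adrenal markers, none at 0, was 1016 in normal replicate 1 and 138 to 253 on the other 9 arrays. Hyperinsulinemic replicate 6 also had the lowest median correlation with the other arrays, 0.981 against 0.985 to 0.988. Xist, the transcript of the inactive X chromosome, ran from 0.8 to 2 in the normal and from 42.4 to 70.5 in the hyperinsulinemic group, so the group and the Xist level cannot be told apart in any comparison below. Among the members only Prdx4 lies on the X chromosome.

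No antioxidant gene passed the test between the groups over all probe sets. The count was 0 of 52 members at a limma adjusted p under 0.05, against 0.0104% of all 9601 probe sets tested. Their adjusted p-values ran from 0.907 to 0.998. At an unadjusted p under 0.05 limma gave 6 members, or 11.5%, against 5.36% of all probe sets: 5 were lower (9.62%, against 2.93%) and 1 was higher (1.92%, against 2.44%). The split was 5 lower of 8 with the liver markers as a covariate, 3 of 5 without the 2 arrays with the most Alb, without hyperinsulinemic replicate 7 or without hyperinsulinemic replicate 8, and 2 of 3 without normal replicate 4. It was 4 of 4 with arrays shifted to a common median, 6 of 6 with no filter, 7 of 8 with quantile normalization and 8 of 9 with array weights. The exact permutation test gave 6 at that level, not the same 6 (11.5%, against 5.33%), all lower (against 2.68%), and after adjustment 0 members and 0% of all probe sets. Mt2A, Gpx7 and Nqo2 were under 0.05 in both tests. Ggt1, Mgst3 and the brighter Gclc probe set were so only by permutation, and Sod2, Txn2 and the dimmer Gclc probe set only by limma. The groups did not overlap for 2 members, Gpx7 and Nqo2, both lower: 3.85%, against 1.04% of all probe sets, or 0.510% lower and 0.531% higher.

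The differences were small and their intervals narrow. The log2 differences ran from -0.25 (Gpx2) to 0.24 (Gstm7), and 35 of the 52 lay between -0.1 and 0.1. The 95% interval stayed within 0.5 of 0 on the log2 scale, a 1.41-fold change either way, for 50 members (96.2%, against 96.8% of all probe sets). The exceptions were Gpx2 and Gstm7. Signals were lower in the hyperinsulinemic group for 25 members and higher for 27, or 48.1% lower against 49.1% of all probe sets. With 1 probe set per gene the median log2 difference was 0.0059 over the 49 genes and 0.0029 over all 7267 genes tested, and the median within-group SD of log2 signals was 0.14 and 0.13.

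**Figure D1:**
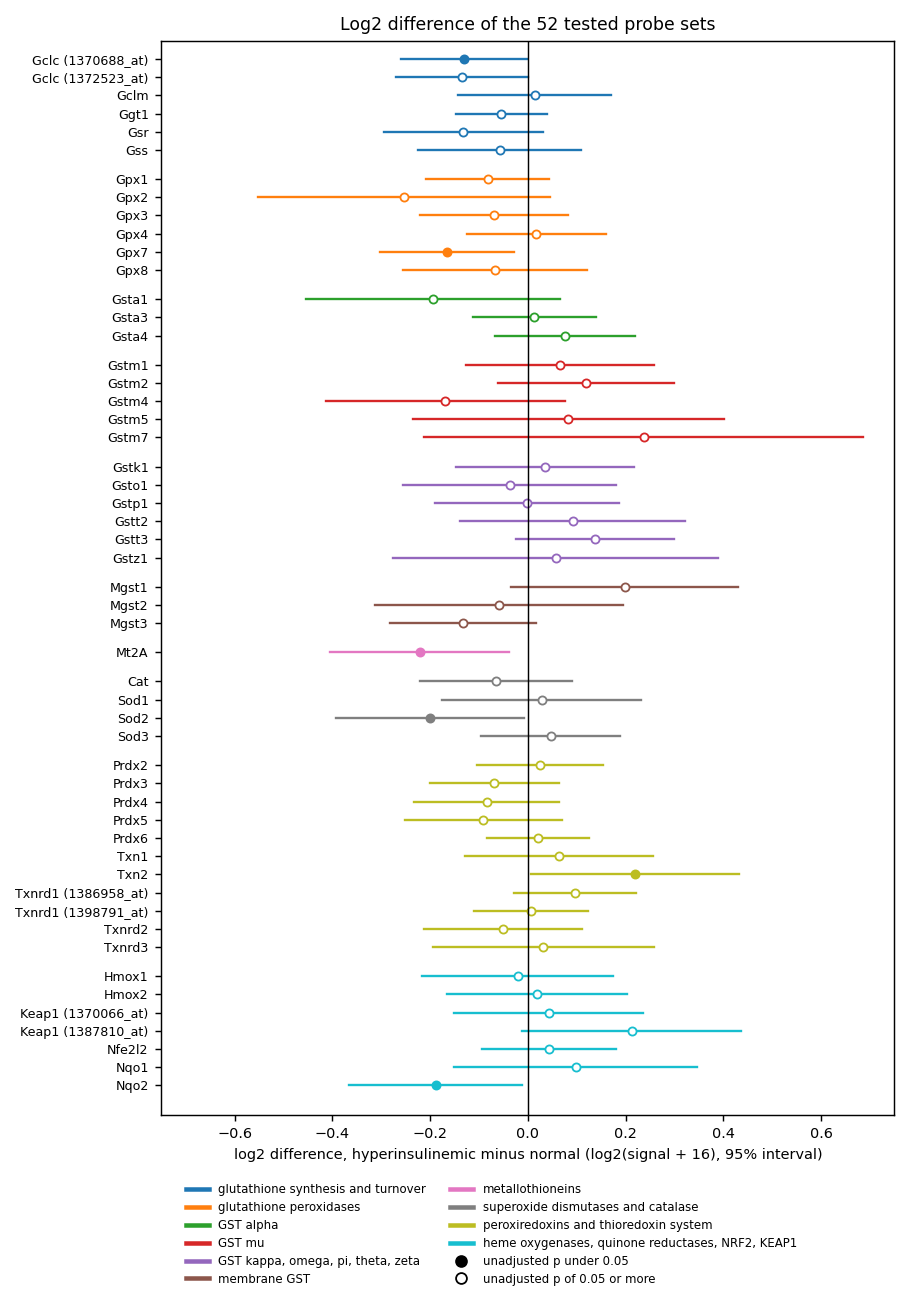
Log2 difference in MAS5 signal (x axis, hyperinsulinemic minus normal, with 95% intervals from limma) of the 52 tested probe sets (y axis), 5 arrays a group, coloured by role. Filled points, 6 in all, have an unadjusted p under 0.05; the intervals of all but Gpx2 and Gstm7 lie between -0.5 and 0.5.

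Of the metallothioneins only Mt2A was bright enough to test, and it had the smallest unadjusted limma p of the tested members. Its gene lies directly between Mt1 and Mt3, with no other protein-coding gene between them in RefSeq's table. The signal of Mt2A was 3480.5, 3533, 3726, 3834 and 4109 in normal replicates 1 to 5 and 3364, 2537, 3509, 3083 and 3618 in hyperinsulinemic replicates 6 to 10. Normal replicate 5 was highest and hyperinsulinemic replicate 7 far lowest, and the groups overlapped. The means were 3736 ± 253 and 3222 ± 433, a log2 difference of -0.22 ± 0.09 (95% interval -0.40 to -0.04; limma, adjusted p = 0.907; exact permutation p = 0.0397). Without hyperinsulinemic replicate 7 the log2 difference was -0.14, and without hyperinsulinemic replicate 10 it was -0.27. Mt1 and Mt3, the latter known mainly from the brain, gave signals near the floor of the array: 2.2 to 44.2 for Mt1 and 19.7 to 64.7 for Mt3 over all 10 arrays. Their exact permutation p-values were 0.349 and 0.238. Near-identical members of such families can share probes, so a probe set may not read its named gene alone.

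Metallothionein genes are known to respond to zinc and copper through metal response elements, and the promoters of the 3 members are shown to set them side by side, since only Mt2A was bright enough to test. The windows run from 250 bases before to 50 after the start of the gene in RefSeq's GRCr8 assembly, all on the minus strand and written 5′ to 3′ in the direction of the gene. Capitals mark matches to the core of the metal response element, TGCNCNC, on either strand.
Mt2A, chr19:10838659-10838958: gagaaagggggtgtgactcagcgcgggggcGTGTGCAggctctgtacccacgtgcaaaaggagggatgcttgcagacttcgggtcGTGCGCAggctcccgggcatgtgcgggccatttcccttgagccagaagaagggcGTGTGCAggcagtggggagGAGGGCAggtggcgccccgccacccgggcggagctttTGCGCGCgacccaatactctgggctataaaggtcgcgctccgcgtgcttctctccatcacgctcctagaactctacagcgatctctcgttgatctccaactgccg
Mt1, chr19:10832926-10833225: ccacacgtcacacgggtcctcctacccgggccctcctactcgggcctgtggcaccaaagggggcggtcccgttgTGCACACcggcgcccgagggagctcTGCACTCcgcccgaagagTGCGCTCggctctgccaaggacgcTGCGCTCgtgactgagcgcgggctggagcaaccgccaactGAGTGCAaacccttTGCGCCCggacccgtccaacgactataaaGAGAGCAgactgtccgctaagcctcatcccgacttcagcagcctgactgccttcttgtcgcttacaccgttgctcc
Mt3, chr19:10856031-10856330: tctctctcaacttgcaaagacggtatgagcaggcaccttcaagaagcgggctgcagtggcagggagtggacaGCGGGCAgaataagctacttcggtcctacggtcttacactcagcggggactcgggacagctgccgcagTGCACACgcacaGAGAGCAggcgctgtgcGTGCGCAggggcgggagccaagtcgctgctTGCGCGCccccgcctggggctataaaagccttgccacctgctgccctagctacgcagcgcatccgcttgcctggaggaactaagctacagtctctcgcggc
There were 5 matches for Mt2A, 7 for Mt1 and 5 for Mt3. At least 5 matches were found in 3 of the 47 members with a promoter in the table, these same 3, and in 0.669% of 33469 promoters. The match of Mt2A nearest its start lay from base -55 to -49, and that of Mt1 from -26 to -20, the latter fitting only the loose form. Nqo2, the member with 4 matches to the loose form, came next, and at least 1 match was found in 63.8% of the members' promoters and 49.6% of all. The members' share used the first listed promoter of each gene, and that of all promoters every listed promoter. Such a match is a run of letters and not a measured site of binding.

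Of the enzymes that make, recycle and break down glutathione, 4 of 5 tested genes had a log2 difference below 0, with a median of -0.06. Gclc encodes the catalytic subunit of the rate-limiting ligase and was read by both of its probe sets. The first gave 795, 854, 788, 771 and 735 in normal replicates 1 to 5 and 803, 686, 714, 679 and 714 in hyperinsulinemic replicates 6 to 10. The other gave 1023, 1031, 952, 978 and 988 in normal replicates 1 to 5 and 783, 923, 912, 906 and 1013 in hyperinsulinemic replicates 6 to 10. All hyperinsulinemic arrays but replicate 6 lay below every normal array for the first probe set, and all but replicate 10 for the other, while replicate 6 was the highest hyperinsulinemic array for the first and the lowest of all 10 for the other. The log2 differences were -0.13 ± 0.06 and -0.13 ± 0.06 (limma, adjusted p = 0.918 and 0.931; exact permutation p = 0.0556 and 0.0397). With the liver markers as a covariate that of the brighter probe set was -0.03. It was -0.08 without hyperinsulinemic replicate 6 and -0.17 without hyperinsulinemic replicate 10.

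The modifier subunit gene Gclm stood at 513 ± 45.2 and 518 ± 40.9, a log2 difference of 0.01 ± 0.07. Gsr, which encodes the reductase that returns oxidised glutathione to its active form, stood at 486 ± 57.3 and 439.5 ± 17.2 (-0.13 ± 0.08), and Gss, which completes the synthesis, at 572 ± 32.7 and 552 ± 66.7 (-0.06 ± 0.08). Ggt1, the brush-border enzyme that breaks down glutathione in the tubule lumen, had the tightest interval of the set, at 1740.4 ± 15.1 and 1676 ± 49 (-0.05 ± 0.04; 95% interval -0.15 to 0.04). Its normal arrays kept within 1716 to 1757, and only hyperinsulinemic replicate 6, at 1742, reached that range (exact permutation p = 0.0238; limma, adjusted p = 0.973). Ggt5 and Ggt7, below the level for testing, ran from 40.8 to 78.5 and from 63.4 to 98.2 over all arrays.

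Glutathione peroxidases, which reduce peroxides with glutathione, had 5 of 6 tested genes below 0 and a median of -0.08. Gpx7 encodes a peroxidase of the endoplasmic reticulum that takes part in oxidative protein folding. Its signal was 293, 294, 264, 308 and 274 in normal replicates 1 to 5 and 261, 244, 237, 262 and 264 in hyperinsulinemic replicates 6 to 10. Every hyperinsulinemic array lay below every normal one, by a margin of 264.0 against 264.2 at the nearest. The means were 287 ± 17.5 and 254 ± 12.4, a log2 difference of -0.17 ± 0.06 (95% interval -0.30 to -0.03; limma, adjusted p = 0.909; exact permutation p = 0.00794), the last being the smallest p that 5 against 5 arrays can give. The related gene Gpx8, also of the endoplasmic reticulum, stood at 595 ± 52.8 and 569.6 ± 75.9 (-0.07 ± 0.09).

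Of the selenium-dependent peroxidases, Gpx1, Gpx3 and Gpx4 lay within 0.1 of 0 and Gpx2 did not. Gpx1, the cytosolic enzyme, stood at 1911 ± 34.3 and 1809.7 ± 157 (-0.08 ± 0.06). Gpx3, the plasma form that the proximal tubule secretes, stood at 3567 ± 232 and 3406 ± 360.0 (-0.07 ± 0.07), and Gpx4, which acts on lipid peroxides in membranes, at 1472 ± 109 and 1491 ± 121 (0.02 ± 0.07). Their 95% intervals lay between -0.22 and 0.16. Gpx2, best known from the gut, had the lowest difference of the 52 tested members at 121 ± 17.8 and 100.1 ± 23.8, a log2 difference of -0.25 ± 0.14 (95% interval -0.55 to 0.05; limma, adjusted p = 0.941; exact permutation p = 0.167). It reached the level for testing on all 5 normal and 3 hyperinsulinemic arrays. Gpx6 lay at the floor, between 2 and 13.9.

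Soluble glutathione S-transferases couple glutathione to reactive compounds and were read by 14 tested genes, in the alpha, mu, omega, pi, theta and zeta classes of the cytosol and the kappa class of mitochondria and peroxisomes, and 10 of these were above 0. Gsta1, an alpha-class gene, had the smallest p of its class. Its signal was 207, 160.5, 158, 152 and 115 in normal replicates 1 to 5 and 160.4, 128, 119, 128 and 140.2 in hyperinsulinemic replicates 6 to 10. Normal replicate 1 was highest and normal replicate 5 lowest of all 10 arrays, so the normal group spanned the whole hyperinsulinemic range. The difference was -0.19 ± 0.12 (limma, adjusted p = 0.959; exact permutation p = 0.206), and it was -0.10 without normal replicate 1 and -0.29 without normal replicate 5. Normal replicate 1 was the array with the highest adrenal marker sum: Hsd3b1, a steroid-making enzyme, was at 218 there and between 1.5 and 6.3 on the others, and Cyp11b1 at 156 against 2 to 19.6. Cyp11a1 (295 against 46.4 to 78.2) and Cyp21a1 (195 against 7.9 to 34.4) were likewise far highest there. Star (49.7 against 17.1 to 45.3) and Dbh (21.8 against 3.8 to 19.6) were highest by a small margin. Th, Pnmt, Cyp17a1 and Chga stayed within the range of the other arrays. The part of the adrenal markers in the Gsta1 signal was not tested beyond leaving that array out. The neighbouring gene Gsta3 stood at 291 ± 10.6 and 294 ± 13.1 (0.01 ± 0.06) and Gsta4 at 835 ± 27.1 and 885 ± 90.5 (0.08 ± 0.07).

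Of the mu-class genes, which lie close together on chromosome 2, 4 of 5 tested were above 0 and Gstm4 was below it, with signals of 345, 312, 345, 250.0 and 289 in normal replicates 1 to 5 and 286, 261, 339, 275 and 207 in hyperinsulinemic replicates 6 to 10. Hyperinsulinemic replicate 10 was lowest and replicate 8 lay among the highest normal arrays. The difference was -0.17 ± 0.11 (limma, adjusted p = 0.973; exact permutation p = 0.246), -0.08 without replicate 10 and -0.25 without replicate 8. Its direct neighbour Gstm1 stood at 279 ± 27.7 and 294 ± 38.4 (0.07 ± 0.09), and Gstm2, next to Gstm1, at 501 ± 67.5 and 542 ± 28.5 (0.12 ± 0.08). Gstm5 stood at 332 ± 41.5 and 360.3 ± 93.3 (0.08 ± 0.15). Gstm7 signals ranged from 61.2 to 174 in the hyperinsulinemic and 88.4 to 108 in the normal group, and its interval was the widest of the tested members, -0.21 to 0.69. Gstm3 stayed under 10 on 9 arrays.

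In the remaining soluble classes Gstt3, a theta-class gene, had the smallest p. Its signal was 757, 598, 607, 719 and 741 in normal replicates 1 to 5 and 746, 711, 724, 745 and 833 in hyperinsulinemic replicates 6 to 10. Hyperinsulinemic replicate 10 was highest, normal replicates 2 and 3 were lowest, and the other arrays were mixed. The difference was 0.14 ± 0.08 (limma, adjusted p = 0.941; exact permutation p = 0.206), 0.09 without normal replicate 2 and 0.17 without normal replicate 1. Gstt2, in the same cluster, stood at 241 ± 19.2 and 260.4 ± 48.7 (0.09 ± 0.11), while Gstt1 was below the level for testing at 67.2 ± 17.5 and 57.4 ± 29.1. Gstp1, the pi-class enzyme, had the difference closest to 0 of all tested members, at 1393 ± 108 and 1399.6 ± 202 (95% interval -0.19 to 0.19). Gsto1, Gstk1 and Gstz1 gave -0.04 ± 0.10, 0.04 ± 0.09 and 0.06 ± 0.16.

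The membrane-bound transferases went different ways. Mgst3, which acts on lipid peroxides and leukotrienes, had signals of 1608, 1695, 1614, 1625 and 1594 in normal replicates 1 to 5 and 1614, 1209, 1521, 1559.7 and 1548 in hyperinsulinemic replicates 6 to 10. Hyperinsulinemic replicate 7 was far lowest, and of the others only replicate 6 reached the normal range. The difference was -0.13 ± 0.07 (limma, adjusted p = 0.941; exact permutation p = 0.0238), -0.06 without replicate 7 and -0.16 without replicate 6. Mgst1 stood at 325 ± 25.2 and 380.5 ± 81.7 (0.20 ± 0.11), with 525 in hyperinsulinemic replicate 6, the array with the highest liver marker sum, against 298 to 366 on the other 9. The part of liver RNA in this signal was not tested, and other members, among them Cat and Gsta3, were lowest on that array, as listed further on. Mgst2 stood at 118 ± 16.9 and 113 ± 17.9 (-0.06 ± 0.12).

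Of the enzymes that remove superoxide and hydrogen peroxide, the mitochondrial one had the smallest p. Sod2, the manganese superoxide dismutase, had signals of 811, 710.1, 829, 659 and 610.2 in normal replicates 1 to 5 and 656, 592, 622, 548 and 713 in hyperinsulinemic replicates 6 to 10. Normal replicates 1 and 3 were highest and hyperinsulinemic replicate 9 lowest, and the groups overlapped. The means were 724 ± 94.8 and 626 ± 62.5, a log2 difference of -0.20 ± 0.09 (95% interval -0.39 to -0.01; limma, adjusted p = 0.918; exact permutation p = 0.103). Sod1, the cytosolic copper and zinc enzyme, stood at 1921 ± 113 and 1979.7 ± 325 (0.03 ± 0.10), the secreted Sod3 at 971 ± 64.3 and 1005 ± 83.2 (0.05 ± 0.07) and catalase, Cat, which works in peroxisomes, at 938 ± 89.3 and 895 ± 71.1 (-0.07 ± 0.07).

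In the thioredoxin system the member with the smallest p was again mitochondrial. Txn2 encodes mitochondrial thioredoxin, and its signal was 762, 764, 746, 923 and 674 in normal replicates 1 to 5 and 1023, 734, 805, 1039 and 934 in hyperinsulinemic replicates 6 to 10. Hyperinsulinemic replicates 6, 9 and 10 and normal replicate 4 were high, while hyperinsulinemic replicate 7 lay among the normal arrays. The means were 774 ± 91 and 907 ± 134, a log2 difference of 0.22 ± 0.10 (95% interval 0.01 to 0.43; limma, adjusted p = 0.918; exact permutation p = 0.103). With the liver markers as a covariate the log2 difference was 0.09, and without hyperinsulinemic replicate 7 it was 0.29. Txn1, the cytosolic form, stood at 3272 ± 201 and 3447 ± 489.8 (0.06 ± 0.09).

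The thioredoxin reductases gave smaller values. Txnrd1, the cytosolic enzyme, was read by a pair of probe sets that gave 0.10 ± 0.06 and 0.01 ± 0.05, the mitochondrial Txnrd2 gave -0.05 ± 0.08 and Txnrd3 gave 0.03 ± 0.11. Peroxiredoxins are peroxidases that mostly depend on thioredoxin, and 3 of the 5 tested were below 0. Prdx2 of the cytosol stood at 2469 ± 52.2 and 2521 ± 230.0 (0.03 ± 0.06) and Prdx6 at 1009 ± 29.5 and 1025 ± 39.2 (0.02 ± 0.05). The mitochondrial Prdx3 gave -0.07 ± 0.06 and Prdx5 -0.09 ± 0.07, and the X-linked Prdx4, an enzyme of the endoplasmic reticulum, -0.08 ± 0.07. Of these mitochondrial enzymes Sod2, Txnrd2, Prdx3 and Prdx5 were below 0 and Txn2 above it, and among these 5 the 95% interval left out 0 for Sod2 and Txn2.

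**Figure D2:**
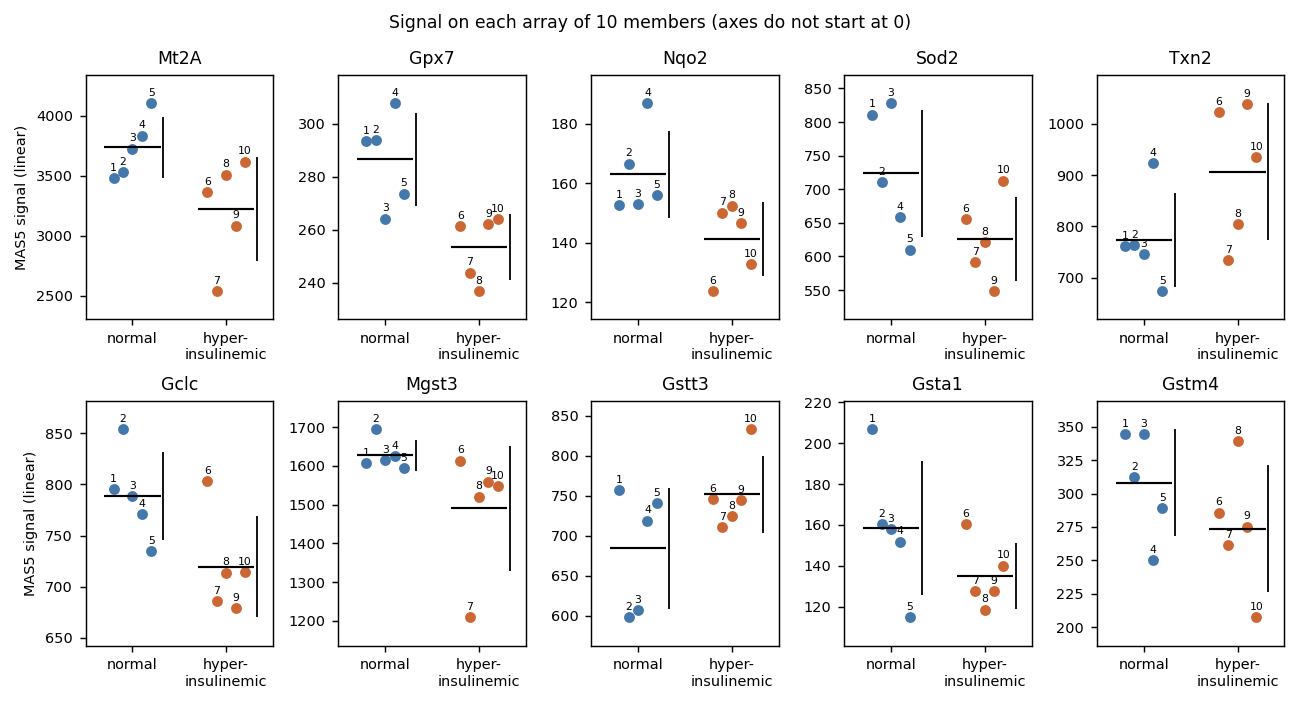
MAS5 signal (y axes, linear, not starting at 0) of 10 members on each array, numbered by replicate, for the normal and hyperinsulinemic groups. Horizontal lines are means and vertical lines 1 SD either side (n = 5 each). Gclc is shown for the probe set with the smaller p. The groups do not overlap for Gpx7 and Nqo2 and overlap for the other 8.

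The regulators of the antioxidant response had intervals that held 0. Nfe2l2 stood at 551 ± 26.2 and 569 ± 48.1 (0.04 ± 0.06; 95% interval -0.09 to 0.18). The brighter probe set of Keap1 stood at 163 ± 18.2 and 168 ± 17.6 (0.04 ± 0.09), and the dimmer at 81.3 ± 11.1 and 96.8 ± 12.5 (0.21 ± 0.10). The dimmer reached the level for testing on 1 normal and 4 hyperinsulinemic arrays, so it entered the test mainly through the group in which it was higher. Nqo1, a quinone reductase widely used as a readout of NRF2, stood at 168 ± 20.9 and 182 ± 32.7 (0.10 ± 0.12; 95% interval -0.15 to 0.35). Hmox1, the inducible heme oxygenase, stood at 148 ± 16.7 and 145 ± 15.4 (-0.02 ± 0.09) and the constitutive Hmox2 at 206 ± 24.5 and 209 ± 16.6 (0.02 ± 0.09).

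Nqo2, a relative of Nqo1 that uses a different electron donor, was the other member whose groups did not overlap. Its signal was 153, 167, 153, 187 and 156 in normal replicates 1 to 5 and 124, 150.1, 152, 147 and 133 in hyperinsulinemic replicates 6 to 10. The nearest arrays were normal replicate 1 and hyperinsulinemic replicate 8, at 152.6 and 152.5, so the groups were separate but touched. The means were 163 ± 14.6 and 141 ± 12.4, a log2 difference of -0.19 ± 0.08 (95% interval -0.37 to -0.01; limma, adjusted p = 0.918; exact permutation p = 0.00794). Without the 2 arrays with the most Alb the log2 difference was -0.10, and without hyperinsulinemic replicate 8 it was -0.21.

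Promoters of the members held the core of the antioxidant response element, TGACNNNGC, in 15 of 47 cases, or 31.9%, against 12.1% of all promoters, counting both strands of the same 300-base windows. The members' share used the first listed promoter of each gene and the other every listed promoter, so the bases are not quite alike. 4 are shown, Gclm and Gstp1 as known targets of NRF2 and Mt2A and Sod2 as members with values given above, with all letters of the match in capitals as read along the gene.
Gclm, bases -172 to -164, match on the reverse strand: GCTTAGTCA
Gstp1, bases -61 to -53: TGACTCAGC
Mt2A, bases -237 to -229: TGACTCAGC
Sod2, bases -35 to -27, match on the reverse strand: GCAGGGTCA
The match of Gstp1 was letter for letter that of Mt2A. Of the 15 members with a match 14 were tested, of which 7 were below 0 and 7 above it. They ran from -0.25 for Gpx2 through -0.22 for Mt2A, -0.20 for Sod2, -0.19 for Gsta1, -0.09 for Prdx5, -0.08 for Prdx4 and a value within 0.01 of 0 for Gstp1 to 0.01 for Gsta3, 0.01 for Gclm, 0.02 for Hmox2, 0.04 for Nfe2l2, 0.06 for Gstz1, 0.08 for Gstm5 and 0.24 for Gstm7, all as log2 differences, and Mt1 was below the level for testing. Gclc and Nqo1 held no match in this window, which says only that these letters are not in it.

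The pattern across single arrays was more uneven than the difference between groups. For each array the deviation of every gene from its normal mean was taken, 1 probe set a gene. Hyperinsulinemic replicate 7 had the lowest median over the 49 member genes, -0.11, with 34 of them below 0, against medians of -0.04 to 0.03 on the other 9 arrays and of 0.02 for all other genes on that array. The 14 member genes with a normal mean signal of at least 1000 (Ggt1, Gpx1, Gpx3, Gpx4, Gsto1, Gstp1, Mgst3, Mt2A, Sod1, Prdx2, Prdx3, Prdx5, Prdx6 and Txn1) were all below 0 on replicate 7, with a median of -0.18. Of the 700 other genes that bright, 55.3% were below 0 there and their median was -0.02. On the remaining arrays 5 to 9 of the 14 were below 0. The normal deviations of each gene average 0 by construction, so only the other hyperinsulinemic arrays are a like comparison. On those the medians over the 49 genes were -0.04 to 0.02, with 22 to 27 genes below 0, and 7 to 9 of the 14 were below 0. The brightness limit was chosen after the values were seen, and the deviation was not tested. The 2 lowest were Mt2A and Mgst3, and Txn1, at 2609 against 3061 to 3891 elsewhere, was also far below its group.

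**Figure D3:**
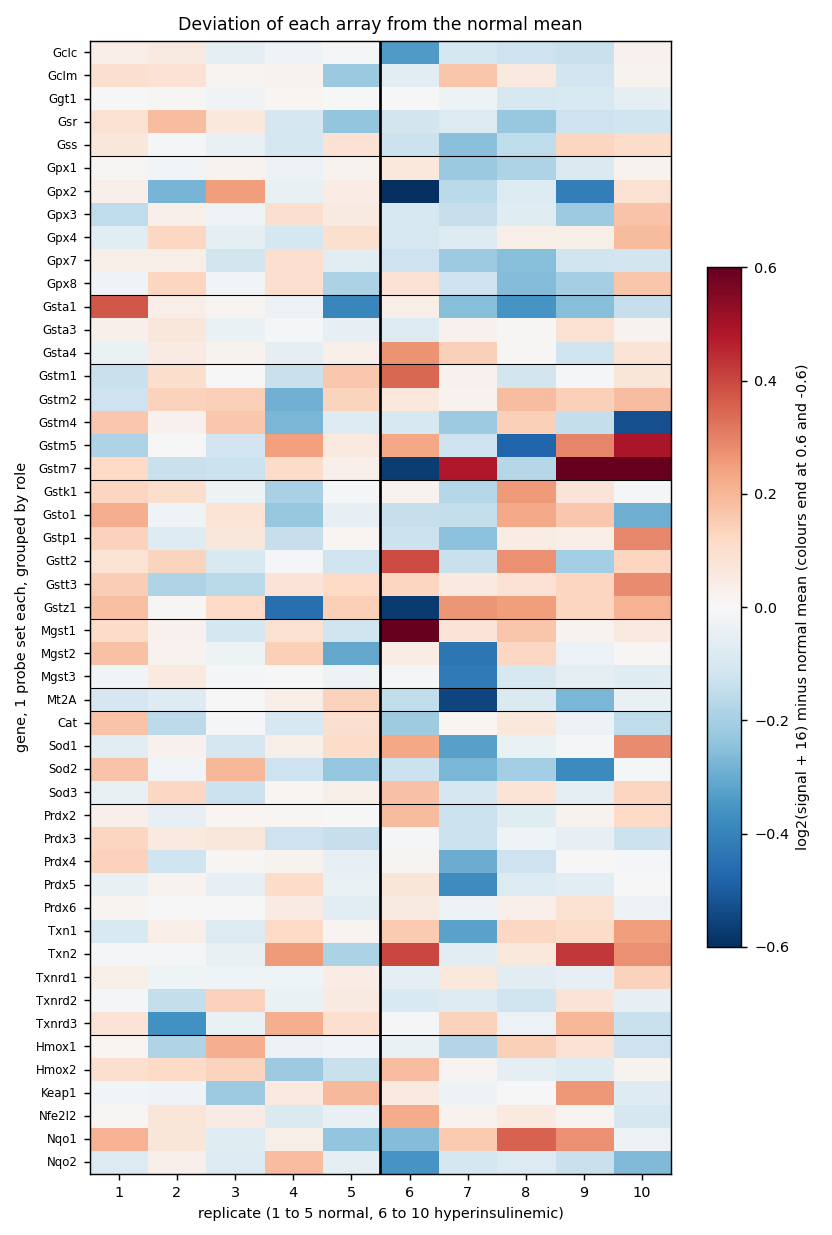
Deviation of log2(signal + 16) from the normal mean (colour) for 49 member genes (rows, grouped by role, the brightest tested probe set of each) on 10 arrays (columns, replicates 1 to 5 normal and 6 to 10 hyperinsulinemic). Replicate 7 has 34 genes below 0, against 18 to 29 on the other 9 arrays and 22 to 27 on the other hyperinsulinemic arrays.

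Other arrays departed in single genes. Hyperinsulinemic replicate 6, with the highest liver marker sum, had the lowest Gstz1 signal, 267 against 292 to 490.3 on the others. It also had the lowest Gpx2, Gstm7, Gsta3, Cat, Nqo1 and Nqo2 signals and the lowest signal of the brighter Gclc probe set. Of the tested members it had the highest Mgst1, Gsta4, Gstm1, Gstt2, Gpx1, Prdx2, Sod3, Nfe2l2 and Hmox2 signals. The mean log2 signal of the 10 liver markers bright enough to test was 7.02 ± 0.45 and 7.81 ± 0.76 in the normal and hyperinsulinemic groups (SD, n = 5 each, exact permutation p = 0.0635, adjusted over 9 array measures 0.179). Some of the 10 entered mainly through the group in which they were higher. Fgg was at 45.6 to 63 in normal replicates 1, 2, 3 and 5, below the level for testing, and at 109 to 611 in hyperinsulinemic replicates 6 to 9. This mean and the liver covariate, built from the same genes, thus depend in part on the filter. The mean log2 signal of 9 stroma markers, all lower in the hyperinsulinemic group, was 9.89 ± 0.08 and 9.65 ± 0.06 (exact permutation p = 0.00794, adjusted 0.0714). That of 14 proximal tubule markers, 12 of them lower, was 10.06 ± 0.08 and 9.96 ± 0.07 (exact permutation p = 0.0794, adjusted 0.179). Loop and distal tubule markers, 5 of 7 tested genes lower, were at 8.69 ± 0.10 and 8.54 ± 0.10 (exact permutation p = 0.0556, adjusted 0.179). Erythroid markers, of 3 tested genes, were at 9.42 ± 0.13 and 9.60 ± 0.21 (exact permutation p = 0.135, adjusted 0.214). Collecting duct, podocyte, and macrophage and leukocyte markers and the Gapdh ratio completed the 9 measures, with exact permutation p-values from 0.143 to 0.746. The part of these cell types in the members' values was not tested beyond the liver covariate and the arrays left out.

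**Figure D4:**
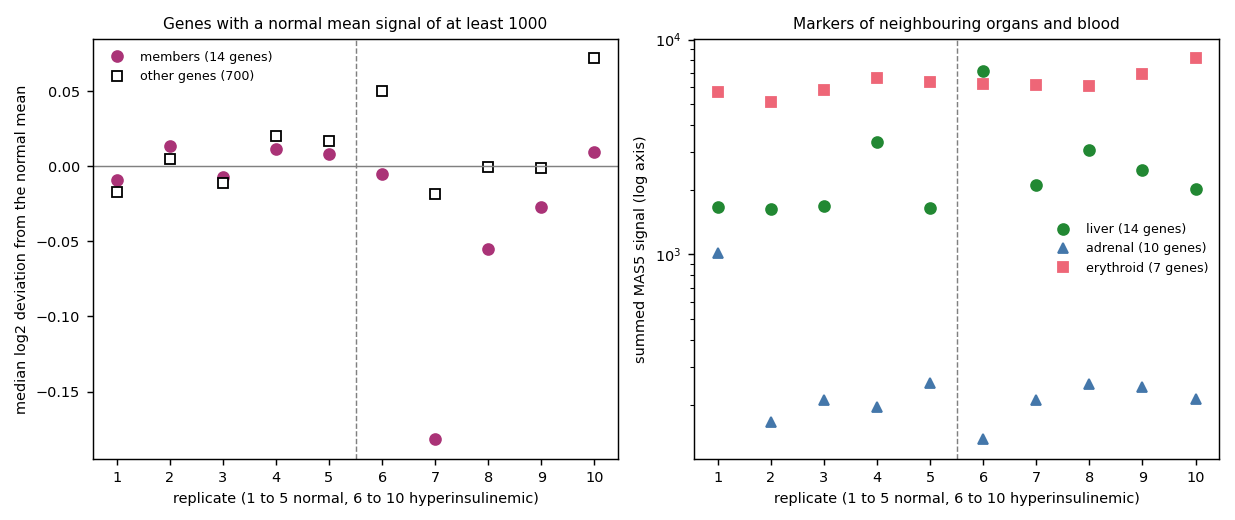
Left, median log2 deviation from the normal mean (y axis) on each array (x axis) for the 14 member genes and the 700 other genes with a normal mean signal of at least 1000. Right, summed MAS5 signal (log axis) of liver, adrenal and erythroid markers on each array. The members are lowest on replicate 7, liver markers highest on replicate 6 and adrenal markers highest on replicate 1.

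Of the genes that surround the members in these pathways, 0 passed over all probe sets with limma, and 7 of 73 had an unadjusted p under 0.05 (9.59%, against 5.16% of all genes tested), of which 6 were lower (8.22%, against 2.77%). In the list of glutathione turnover and sulfur supply 7 of 14 tested genes were lower and the median was -0.0027. Cbs, which feeds cysteine synthesis from homocysteine, stood at 314 ± 27.6 and 237 ± 54 (difference on the log2 scale -0.40 ± 0.12; limma, adjusted p = 0.737), and Slc3a2, the shared chain of the cystine importer, at 1215 ± 67.3 and 1096 ± 47.7 (difference on the log2 scale -0.15 ± 0.05; limma, adjusted p = 0.907). In the list of NRF2 response genes 10 of 18 were lower, with a median of -0.02. Its lowest member was Txnip, the inhibitor of thioredoxin, which responds mainly to glucose, at 1675 ± 158 and 1194 ± 259 (difference on the log2 scale -0.51 ± 0.13; limma, adjusted p = 0.54).

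Thiol redox enzymes and selenoproteins had 11 of 21 tested genes lower and a median of -0.0020, and the member with the smallest p was Msra, which repairs oxidised methionine, at 202 ± 9.55 and 175 ± 10.2 (difference on the log2 scale -0.19 ± 0.07; limma, adjusted p = 0.891). In the list of zinc and copper handling, set beside Mt2A, 9 of 12 tested genes were lower, with a median of -0.06. The zinc importer gene Slc39a1 stood at 786 ± 24.6 and 684 ± 72 (difference on the log2 scale -0.20 ± 0.07; limma, adjusted p = 0.87) and the zinc transporter gene Slc30a2 at 108 ± 9.22 and 83.1 ± 20.4 (difference on the log2 scale -0.34 ± 0.13; limma, adjusted p = 0.907). Slc30a2 was dim, at 61.3, 70.6 and 78.4 in hyperinsulinemic replicates 6 to 8, below the level for testing. It thus entered the test mainly through the normal group, in which it was higher. Among oxidant-producing enzymes 4 of 8 were lower, and Prodh, the mitochondrial proline oxidase, stood at 120.0 ± 20.9 and 146 ± 23.1 (difference on the log2 scale 0.26 ± 0.12; limma, adjusted p = 0.92). Over all 7267 genes tested 48.5% were lower.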

How the data were processed

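Total RNA of 10 fetal kidney samples, 5 per group, was measured on 1-colour Affymetrix arrays. The authors deposited MAS5 intensity values on a linear scale, per the submitters' processing notes; which MAS5 version was used is not given in the sources used here. Without the lowest and highest 2% the mean signal was 250.04 or 250.05 on each array, and no further scaling was applied. Genes were named from GEO's platform annotation: of 15923 probe sets, 12789 had 1 symbol, 312 several and 2822 none. Promoter sequences came from RefSeq (GRCr8), with 47 of 56 member genes matched by Entrez identifier.

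Signals were transformed as log2(signal + 16), the 57 control probe sets were left out, and the filter named above left 9601 probe sets. limma 3.58.1 in R 4.3.3 (lmFit, eBayes with an intensity trend) compared the groups, two-sided, with Benjamini-Hochberg adjustment over all 9601. Exact two-sided permutation tests of mean log2 signal cannot give a p below 0.00794. A gene with several probe sets is represented by the brightest in counts and medians. The number of arrays limits the precision. The script was tested on simulated data. Python 3.11.15 with matplotlib 3.10.9 drew the figures.

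Members, lists and tests were chosen with earlier results of these data known. Members were named with all 10 signals if limma's unadjusted p was under 0.05, if the groups did not overlap, or if the gene had the smallest p of its role; of each surrounding list at most 2 genes per direction with an unadjusted p under 0.05 were named. Alternatives were other scalings, pseudocounts, filters, variance models and covariates, array weights, a permutation test, averaging probe sets of 1 gene, and leaving out arrays.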

Additional observations from a re-analysis of the deposited data

Results flagged for a closer look

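In groups of 5, a sample was singled out when its gap to the nearest other sample exceeded 0.71 of the range of the group, which chance gives in about 1 of 20 groups. Of 118 groups (59 probe sets in 2 groups), 12 had such a sample.

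Hyperinsulinemic replicate 6 was high for the first Gclc probe set, at 803 against 679 to 714, and for Mgst1, at 525 against 329.9 to 366, and low for Gstz1, at 267 against 445 to 490.3. Hyperinsulinemic replicate 7 was low for Mgst3, at 1209 against 1521 to 1614, and for Txn1, at 2609 against 3526 to 3891. Hyperinsulinemic replicate 10 was high for Gstt3, at 833 against 711 to 746. In the normal group replicate 5 was low for Gclm, at 436 against 518 to 548, and replicate 4 was high for the dimmer Keap1 probe set, at 101.0 against 74.4 to 77.9.

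The other 4 lay below the level for testing. Gstm3 was 23.1 in normal replicate 4, against 5.6 to 7.2, and 9.4 in hyperinsulinemic replicate 10, against 6.1 to 6.8. Mt1 was 44.2 in normal replicate 1, the array with the highest adrenal marker sum, against 2.7 to 14.5, and 21.2 in hyperinsulinemic replicate 8, against 2.2 to 5.4.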

How the results depend on the processing

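Under 23 alternatives (10 leaving out an array, 13 others) the count of members at an adjusted p under 0.05 was 0 each time, and the 10 members shown on all arrays kept their direction wherever they were tested. No paired analysis was possible because the groups share no replicate numbers. The count at an unadjusted p under 0.05, 6 with all arrays, ran from 3 to 6 when 1 array was left out; it was 3 without normal replicate 2 or 4 or hyperinsulinemic replicate 9. Those lower numbered 2 to 6 of these counts, against 5 of 6 with all arrays. The count ran from 4 to 9 under the other settings, 9 with array weights and 4 without the intensity trend, with the Gapdh ratio as a covariate or with arrays shifted to a common median, and 3 to 8 were lower. The median over genes, 0.01, ran from -0.03 to 0.02 with 1 array left out and from -0.03 to 0.01 otherwise, so its sign differs between settings. Nqo2 and Gsta1 were not tested with the stricter filter. Dim members, such as Mt1 and Mt3, are limited by their signal over background.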
